A study of Mus musculus with 16 samples.

Results

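T-cell receptor gene segments were represented by 22 of the 41345 probe sets in the deposited array table. A probe set, the group of array probes summarised to one value, was taken as a receptor segment where any of its annotated gene symbols named a variable, diversity, joining or constant segment of the alpha, beta, gamma or delta chain. All 22 were variable segments: 19 carried an alpha-chain symbol, 1 a beta-chain symbol and 2 a gamma-chain symbol. No joining, diversity or constant symbol was matched, and none that begins as a delta-chain symbol (Trd). The symbol Trav14d-3-dv8 also carries a delta variable name (dv8) and was counted as alpha. RNA came from splenic CD8 T cells of female C57BL/6 mice (spelt C56BL/6 in the strain label) that had received leukemia cells of Eµ-TCL1 mice 6 weeks before. Eµ-TCL1 mice develop a disease like chronic lymphocytic leukemia (CLL) from B cells in which an immunoglobulin enhancer drives the TCL1 oncogene. All 4 sorted subsets came from leukemic mice, were gated as TCR-beta positive, CD8 positive and lineage negative, and were hybridised to 4 arrays each, 16 in all.

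The naive subset was sorted as CD127 high and CD44 low, and the memory subset as CD127 high and CD44 high. Both effector subsets were CD127 low with intermediate to high CD44, one with intermediate PD-1 (PD-1int) and one with high PD-1 (PD-1hi). Arrays carry replicate numbers 1 to 4, and the sample titles use the same 4 numbered names in every subset. Whether a number stands for a mouse or a pool, and whether arrays of a subset came from separate mice, is not said, so the p-values reflect array-to-array spread that may be technical. No sample of a mouse without leukemia was analysed here.

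Each T cell builds its receptor by joining 1 variable segment to diversity or joining segments in every chain, so that a cell and its descendants transcribe mainly the variable segments they rearranged. A naive population is made of very many clones that together use all segments, and a bulk measurement averages over them. In bulk RNA, more cells that use a segment and more of its RNA per cell cannot be told apart.

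The 22 probe sets carried few symbols. Trav12-2 stood on 6 probe sets, Trav9d-3 on 5, Trav7-4 and Trav14d-3-dv8 on 3 each, and Trav3-4, Trbv13-2, Trgv5 and Trgv6 on 1 each. Probe set 17299944 carried 2 symbols, Trav3n-3 and a RIKEN clone name that RefSeq lists as a synonym of Trav3-3, and is given by its number. The alpha segments lie on mouse chromosome 14, Trbv13-2 on chromosome 6 and the gamma segments on chromosome 13. RefSeq (GRCm38.p6) lists 130 alpha variable segments, among them 10 of the Trav12 family and 14 of the Trav7 family. The 6 alpha symbols matched here name few of these. The mouse alpha locus holds near-identical copies of many variable segments, and which copies each probe set reads was not tested. Probe sets of one symbol gave different values, so each was kept as its own feature, but 2 pairs had the same values on all 16 arrays (Trav12-2 probe sets 17299849 and 17299926, and 17299857 and 17299934). The 22 probe sets thus held 20 distinct profiles. Another probe set, which carries only the RIKEN name, had the values of 17299944.

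The sorted lineage was clear in the arrays. Cd3e, a chain of the CD3 signalling complex, lay at a log2 value of 12.56 ± 0.06 in naive and 12.93 ± 0.05 in PD-1hi, and Cd8b1, a chain of the CD8 coreceptor, at 12.90 ± 0.04 and 12.57 ± 0.09 (mean ± SD, n = 4); Cd4 lay at 5.95 ± 0.08 and 6.05 ± 0.15. The following are log2 of the summed linear levels of the measured markers of other cells, over the 4 arrays of a subset. Natural killer markers (3 of 4 measured) summed to 8.32 to 8.67 in naive, 10.35 to 10.54 in memory and 11.16 to 11.44 over both effector subsets; Eomes, which effector CD8 T cells also transcribe, rose from 8.04 ± 0.19 to 11.29 ± 0.07 in PD-1hi, while Ncr1 lay at 5.84 ± 0.17 and 5.87 ± 0.04. Klrb1c, a marker of natural killer and NKT cells, rose by 1.33 ± 0.20 in memory against naive (limma adjusted p = 5.9e-04), with an SD of 0.55 in memory. Myeloid and dendritic markers (7 of 7) went from 10.64 to 10.85 in naive to 11.15 to 11.31 in the effector subsets, with Cst3 (10.36 ± 0.10 and 10.93 ± 0.05 in naive and PD-1hi) and Itgam (6.31 ± 0.36 and 7.34 ± 0.33) raised, and Cd14 at 5.04 ± 0.05 and 5.07 ± 0.03.

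B-cell and CLL-cell markers (7 of 8) summed to 9.09 to 9.28 in naive, 10.15 to 10.34 in memory, and 8.92 to 9.57 over both effector subsets. Cd22 lay at 6.28 ± 0.21 in naive and 9.50 ± 0.10 in memory. Both effector subsets also exceeded naive for Cd22, PD-1int by 1.74 ± 0.13 and PD-1hi by 0.84 ± 0.13 (limma adjusted p = 1.3e-07 and 1.4e-04). Cd79b instead fell in both against naive, with differences of -0.72 and -0.97 (limma adjusted p = 0.00132 and 6.8e-05). Ms4a1 lay at 5.35 ± 0.26 and 5.32 ± 0.17 in naive and memory. Gamma-delta T-cell markers (4 of 9) summed to 8.24 to 8.50 in naive and 9.69 to 10.14 in memory, with Cd163l1 at 6.61 ± 0.19 and 9.58 ± 0.24 and Sox13 at 7.22 ± 0.15 and 7.20 ± 0.24. Over all 16 arrays, the sums were 8.19 to 8.49 for CD4 and regulatory T-cell markers (4 of 4), 8.74 to 9.04 for NKT and innate-like markers (4 of 4), 6.89 to 8.16 for erythroid and platelet markers (2 of 6) and 7.52 to 8.11 for thymocyte markers (3 of 4). Within these lists Ppbp, a platelet chemokine, rose in PD-1hi by 1.06 ± 0.28 against naive and by 0.97 ± 0.28 against memory (limma adjusted p = 0.0117 and 0.0265), with an SD of 0.74 in PD-1hi. Zbtb7b rose in PD-1hi against naive by 0.28 ± 0.09 (limma adjusted p = 0.0371), and Cd1d1 fell by 0.48 in memory and by 0.32 in PD-1hi (0.00214 and 0.0133). The part of these markers in the results on the segments was not tested. Array medians over all probe sets lay between 6.39 and 6.49.

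Few segment probe sets differed in mean level between the subsets. A probe set is said to rise or fall only where limma, fitted on all 41345 probe sets, gave a Benjamini-Hochberg adjusted p under 0.05, and values after a probe set are log2 differences ± the standard error of that fit. Against naive, 2 of 22 changed in memory, where 6.8% of all probe sets did, 2 in PD-1int, where 15.2% did, and 1 in PD-1hi, where 19.2% did; each of these rose. Between PD-1hi and PD-1int none of the 22 passed, with 1.26% of all probe sets called, and none had an unadjusted limma p under 0.05, where 11.2% of all did. Against memory, 1 changed in PD-1int, a fall (9.94% of all called), and 1 in PD-1hi, a rise (14.6% of all called). Set against 22, these counts are near or below the shares of all probe sets. The comparisons against naive share the naive arrays, and those against memory the memory arrays.

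The Trav7-4 probe set 17300155 changed most among those that passed. Its log2 values in replicates 1 to 4 were 8.75, 9.07, 9.14 and 8.50 in naive, 10.002, 9.76, 9.96 and 9.80 in memory, 9.46, 10.04, 10.51 and 9.89 in PD-1int, and 9.73, 8.57, 10.14 and 9.70 in PD-1hi. All memory and all PD-1int arrays lay above all naive arrays, whereas PD-1hi replicate 2 lay among the naive values. The rise was 1.02 ± 0.28 in memory (2.02-fold, limma adjusted p = 0.0417) and 1.11 ± 0.28 in PD-1int (2.15-fold, limma adjusted p = 0.0130), and the difference in PD-1hi was 0.67 ± 0.28 (limma adjusted p = 0.124). The memory call was lost when any 1 of the 8 arrays was left out, with limma adjusted p up to 0.111, while the PD-1int call was kept in all 8 such fits.

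The Trav9d-3 probe set 17300247, with SDs of 0.04 to 0.08 in the 4 subsets, rose by a small amount. It read 13.18, 13.21, 13.15 and 13.29 in naive, 13.35, 13.40, 13.29 and 13.33 in memory, 13.53, 13.45, 13.60 and 13.43 in PD-1int, and 13.58, 13.60, 13.61 and 13.48 in PD-1hi. Every effector array lay above every naive array. It rose by 0.30 ± 0.06 in PD-1int (1.23-fold, limma adjusted p = 0.00296) and by 0.36 ± 0.06 in PD-1hi (1.28-fold, limma adjusted p = 4.5e-04) against naive, and by 0.23 ± 0.06 in PD-1hi against memory (limma adjusted p = 0.0189). The last call was lost without memory replicate 3 (limma adjusted p = 0.0577), without PD-1hi replicate 3 (0.0545) and in a fit of the 8 arrays alone (0.0541).

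One of the Trav12-2 probe sets, 17300032, rose in memory. Its values were 10.07, 10.04, 9.87 and 10.11 in naive, 10.51, 10.37, 10.46 and 10.52 in memory, 10.04, 10.34, 9.92 and 10.13 in PD-1int, and 9.99, 10.43, 10.36 and 10.36 in PD-1hi. Memory arrays lay above all naive and PD-1int arrays, and PD-1hi replicate 2 lay above memory replicate 2 (10.37). The rise over naive was 0.44 ± 0.11 (limma adjusted p = 0.0187) and the fall from memory to PD-1int was -0.36 ± 0.11 (limma adjusted p = 0.0450), while PD-1hi differed from memory by -0.18 ± 0.11 (limma adjusted p = 0.340). The first call was lost without naive replicate 3 (0.0654), memory replicate 1 (0.0544) or memory replicate 4 (0.0561), and the second in 7 of 8 fits that left out 1 array, all but the one without PD-1int replicate 2, with limma adjusted p up to 0.139.

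Across all 22, the median log2 difference against naive was 0.27 in memory, 0.23 in PD-1int and 0.28 for PD-1hi, and over all probe sets it was -0.03, -0.04 and -0.02. Of the 22, 18, 17 and 19 were above 0. These counts share the naive arrays and include both identical pairs, so they are not independent. Arrays of both subsets did not overlap for 4 of 22 when memory was set against naive (12.3% of all probe sets), 5 for PD-1int against naive (18.4%), 1 for PD-1hi against naive (20.3%), 0 in PD-1hi against PD-1int (6.92%), 3 in PD-1int against memory (15.9%) and 2 in PD-1hi against memory (18.7%). Standard errors were larger for the segments than for other probe sets, with a median of 0.25 against 0.12, and the fit applies 1 error per probe set to all subsets although the spread of the segments differed between them. Without PD-1hi replicate 1, 7 rather than 1 passed in PD-1hi against naive, and without PD-1hi replicate 2, 3 did; in memory against naive each single-array omission left 0 or 1 of the 2, and a fit of those 8 arrays alone gave 4. In PD-1int against memory no segment passed in 7 of the 8 omissions, and in PD-1hi against memory 0 passed without memory replicate 3 or PD-1hi replicate 3 and 2 without PD-1hi replicate 2.

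Segment SDs between arrays of a subset were larger at the median in the effector subsets than in the others. Over 4 arrays the median SD of the 22 was 0.20 for naive, 0.13 for memory, 0.42 for PD-1int and 0.52 for PD-1hi. Over all 41345 probe sets it stayed between 0.14 and 0.16. It exceeded the SD of 62.4%, 45.0%, 90.4% and 92.6% of all probe sets in that order, and of 60.4%, 44.2%, 90.7% and 92.6% once the 40% of probe sets with the lowest mean were left out. Of the 22, the number above the 90th percentile of all SDs was 1, 1, 13 and 11 in that order. Without memory replicate 3 the median in memory was 0.08.

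**Figure D1:**
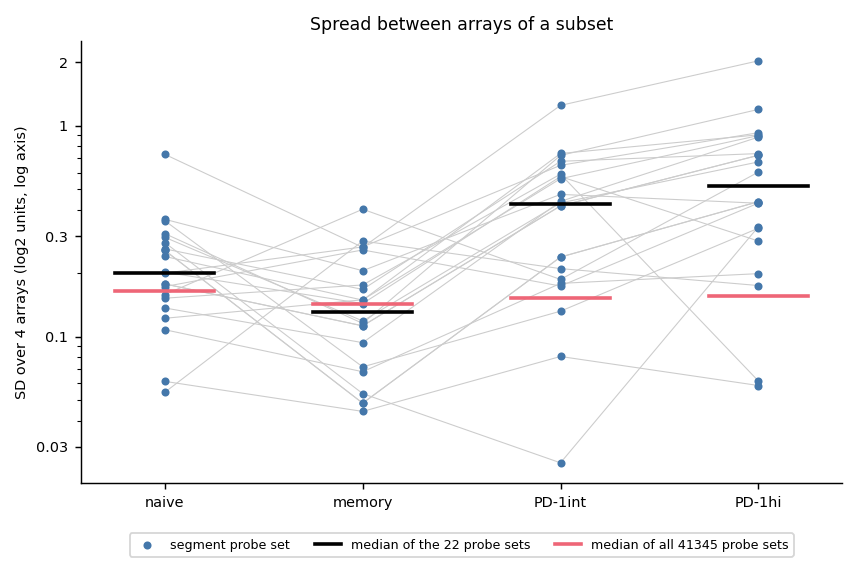
SD of the log2 value over the 4 arrays of each subset on a log axis, with 1 point per receptor segment probe set joined across subsets, a black bar at the median of the 22 and a red bar at the median of all 41345 probe sets. The black bar lies at 0.20 and 0.13 in naive and memory and at 0.42 and 0.52 in PD-1int and PD-1hi, while the red bar stays between 0.14 and 0.16.

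The SD was larger in PD-1int than in memory for 18 of 22 (54.9%) and in PD-1hi than in memory for 20 (56.7%). It was larger in PD-1int than in naive for 18 of 22 probe sets (45.5% of all probe sets) and larger in PD-1hi than in naive for 19 (47.3%). PD-1hi exceeded PD-1int for 17 (52.4%), and larger in memory than in naive for 6 (40.7%). The highest array was at least 2-fold above the lowest for 1 of 22 naive profiles (9.52% of all), 0 for memory (6.81%), 10 for PD-1int (8.7%) and 11 for PD-1hi (9.61%). A single array stood at least 2-fold above the other 3 for 0 of 22 naive profiles (1.37%), 0 for memory (0.813%), 1 for PD-1int (1.27%) and 2 for PD-1hi (1.65%), and at least 2-fold below them for 1 (1.56%), 0 (0.946%), 2 (1.44%) and 3 (1.7%). By Dixon's criterion, which sets the gap to the nearest array against the whole range, 1 array stood apart for 1 of 22 naive profiles (5.44% of all), 1 for memory (5.19%), 1 for PD-1int (6%) and 2 for PD-1hi (5.64%). Segments of 1 family share sequence, so these probe sets are not independent counts.

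**Figure D2:**
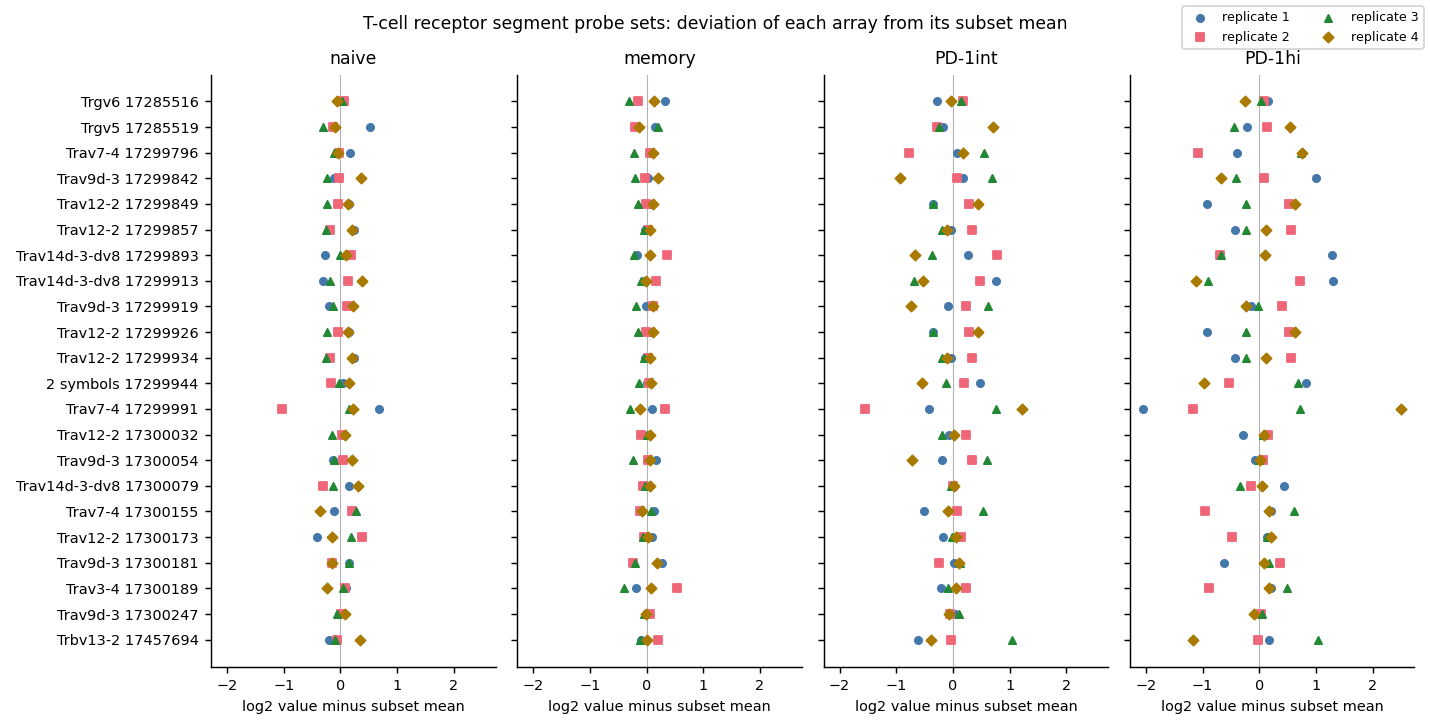
Deviation of every array from the mean of its subset, in log2 units, for each of the 22 probe sets (rows) in the 4 subsets (panels), with colour and shape for the replicate number. The points lie close to 0 in memory and reach from -2.05 to 2.51 in PD-1hi, both for the Trav7-4 probe set 17299991.

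A test of the spread in single probe sets passed for 2 of 22. It fitted the absolute deviations of the arrays from their subset mean with limma over all probe sets. In PD-1hi against naive the spread was larger for the Trav14d-3-dv8 probe set 17299913 (SD 1.20 against 0.31, n = 4 arrays each, limma adjusted p = 0.00522) and for probe set 17299944 (SD 0.88 against 0.14, limma adjusted p = 0.0112), where 0.409% of all probe sets were called in either direction. Against memory the same 2 passed (limma adjusted p = 0.00162 and 0.0106, 0.31% of all called). None of the 22 passed in PD-1int against naive (0.276% called), PD-1int against memory (0.123%), PD-1hi against PD-1int (0.189%) or memory against naive (0.237%). At an unadjusted limma p under 0.05, in either direction, 7, 7, 9 and 5 of 22 did in those 4 comparisons (11.8%, 9.69%, 10.7% and 10.7% of all probe sets), 8 for PD-1hi against naive (12.5%) and 13 for PD-1hi against memory (11%). On simulated data without a change in spread the test gave more small p than its nominal rate, and it found only a minority of large changes, so single calls are weak in both directions. By a variance ratio test, added after the data were seen, 0 of 22 passed in any of the 6 comparisons; over all probe sets 2 passed for PD-1int against naive (0.00484%), 1 for PD-1hi against naive (0.00242%) and 0 in the others. At an unadjusted p under 0.05 with the larger spread in the first-named subset, that test gave 5 of 22 for PD-1hi against naive (3.04% of all), 13 in PD-1hi against memory (4.55%), 8 in PD-1int against memory (3.88%) and 1 each in PD-1int against naive (2.52%), PD-1hi against PD-1int (3.48%) and memory against naive (1.89%). In 4 omissions of 1 PD-1hi array no call of the first test was left in either comparison, and without naive replicate 1 a single call remained against naive.

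The 3 Trav14d-3-dv8 probe sets differed in their spread. For 17299913, naive arrays read 9.48, 9.92, 9.61 and 10.16 and memory arrays 10.16, 10.37, 10.10 and 10.18 in replicates 1 to 4. PD-1int arrays read 10.41, 10.12, 8.95 and 9.12, and PD-1hi arrays 11.01, 10.43, 8.80 and 8.59. In both effector subsets replicates 1 and 2 were the high arrays and replicates 3 and 4 the low ones, on either side of the naive mean of 9.79. The highest PD-1hi array was 5.34-fold above the lowest. The mean of PD-1hi differed from naive by only -0.08 ± 0.46 (limma adjusted p = 0.940).

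A second probe set of the symbol Trav14d-3-dv8, 17299893, read 6.87, 7.33, 7.15 and 7.25 in naive and 7.72, 8.24, 7.10 and 6.78 in PD-1int. In PD-1hi it read 8.68, 6.71, 6.72 and 7.50, with replicate 1 alone 2.26-fold above the next array. Thus replicate 2 was the highest array in PD-1int and, nearly level with replicate 3, the lowest in PD-1hi. The third, 17300079, stayed between 6.55 and 7.37 on all 16 arrays, with an SD of 0.03 in PD-1int and 0.33 in PD-1hi. In PD-1hi replicate 1 was the highest array for all 3 probe sets of this symbol, and the order of the other arrays differed between them. Replicates 1 and 2 lay above replicates 3 and 4 in PD-1int for 17299913 and 17299893.

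The Trav7-4 probe set 17299991 had the largest SD of the 22 in naive (0.73) as well as in PD-1int (1.25) and PD-1hi (2.03). It read 7.76, 6.05, 7.23 and 7.30 in naive and 7.26, 7.50, 6.88 and 7.06 in memory. In PD-1int it read 6.35, 5.22, 7.54 and 7.998, and in PD-1hi 5.46, 6.33, 8.23 and 10.02. Replicates 3 and 4 were high and replicates 1 and 2 low in both effector subsets. PD-1hi replicate 4 was 3.46-fold above the next array and 23.6-fold above the lowest, against 6.87-fold from highest to lowest in PD-1int and 3.29-fold in naive, where replicate 2 stood 2.27-fold below the next array.

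Another Trav7-4 probe set, 17299796, had an SD of 0.12 for naive, 0.15 for memory, 0.56 for PD-1int and 0.90 for PD-1hi. Its PD-1int arrays read 9.86, 9.01, 10.34 and 9.98 and its PD-1hi arrays 9.68, 8.996, 10.81 and 10.82. Replicate 2 was lowest in both, and in PD-1hi replicates 3 and 4 were nearly equal and more than 2-fold above replicate 1. The naive arrays all lay between 9.67 and 9.96.

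Trbv13-2, the only beta-chain symbol matched, had its highest effector arrays at number 3. It read 9.30, 9.45, 9.41 and 9.85 in naive and 9.19, 9.50, 9.17 and 9.30 in memory. PD-1int arrays read 9.20, 9.78, 10.87 and 9.44, and PD-1hi arrays 9.95, 9.75, 10.81 and 8.61. Replicate 3 stood 2.12-fold above the next array in PD-1int and 1.81-fold above it in PD-1hi, and PD-1hi replicate 4 stood 2.21-fold below the next lowest. The mean differed from naive by 0.32 ± 0.39 in PD-1int and 0.28 ± 0.39 in PD-1hi (limma adjusted p = 0.692 and 0.723).

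**Figure D3:**
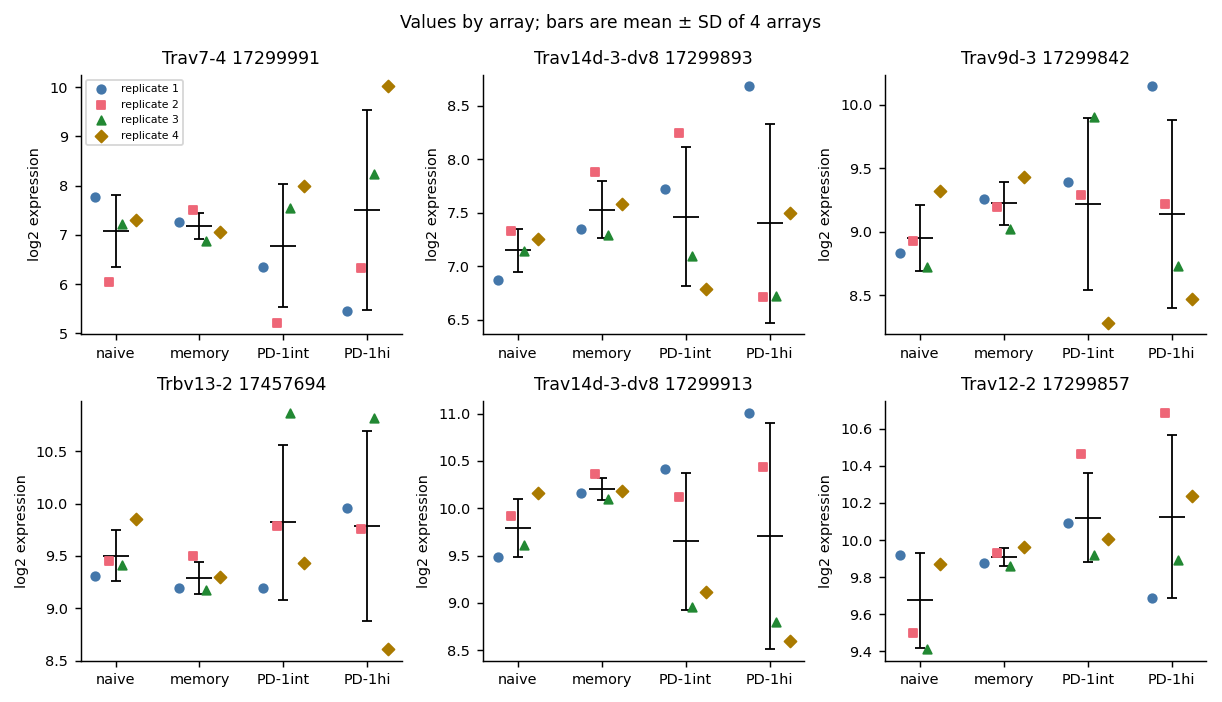
Log2 expression, on each of the 16 arrays, of the 6 one-symbol probe sets with the largest gap between the highest and the next PD-1hi array, with points coloured by replicate number and bars at the mean ± SD of the 4 arrays of a subset; the axes do not start at 0 and differ between panels. Trav14d-3-dv8 17299913 shows replicates 1 and 2 high and 3 and 4 low in both PD-1 subsets, and Trbv13-2 shows replicate 3 at 10.87 and 10.81 in PD-1int and PD-1hi.

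Trav12-2 and Trav9d-3 probe sets gave further array patterns. The pair of identical Trav12-2 probe sets 17299849 and 17299926 read 9.69, 10.32, 9.69 and 10.48 in PD-1int and 9.41, 10.85, 10.09 and 10.96 in PD-1hi, so that replicates 2 and 4 were high in both. The naive values lay between 9.39 and 9.77. For the other identical pair, 17299857 and 17299934, replicate 2 was highest in both effector subsets, at 10.46 and 10.69. Trav9d-3 probe set 17299842 read 9.39, 9.29, 9.91 and 8.28 in PD-1int and 10.15, 9.21, 8.73 and 8.47 in PD-1hi. Replicate 4 was lowest in both, but the highest array was replicate 3 in PD-1int and replicate 1 in PD-1hi. Trav9d-3 probe sets 17299919 and 17300054 spread more in PD-1int (SD 0.57 and 0.59) than in PD-1hi (0.28 and 0.06), again with replicate 3 highest and replicate 4 lowest in PD-1int.

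Probe set 17299944 read 10.68, 10.47, 10.62 and 10.80 in naive, 10.87, 10.91, 10.73 and 10.95 in memory, 11.31, 11.03, 10.72 and 10.29 in PD-1int, and 11.67, 10.32, 11.53 and 9.88 in PD-1hi. Replicate 1 was highest and replicate 4 lowest in both effector subsets, while replicate 3 was low in PD-1int and high in PD-1hi. Trav3-4, on a probe set of its own, had an SD of 0.60 in PD-1hi, where replicate 2 (7.21) stood 2.09-fold below the next array, and 0.19 in PD-1int. The remaining probe sets, Trav12-2 17300173 and Trav9d-3 17300181, had SDs from 0.07 to 0.43 in the 4 subsets.

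The gamma-chain segments, which gamma-delta T cells rearrange, differed little. Trgv6 had a mean of 5.57 ± 0.05 for naive, 5.53 ± 0.28 for memory, 5.61 ± 0.21 for PD-1int and 5.61 ± 0.17 for PD-1hi, and Trgv5 had 4.14 ± 0.36, 4.31 ± 0.21, 4.31 ± 0.47 and 4.37 ± 0.43 (mean ± SD, n = 4). Neither passed in any comparison of level or spread. The files give no detection calls, so whether these low values stand above background is unknown.

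Arrays of one number shared part of their segment pattern between PD-1int and PD-1hi. The highest array had the same number in both subsets for 12 of 22 probe sets, compared with 25.1% of all probe sets, and the lowest for 8 of 22 (24.5% of all) and both for 4 (8.22%). With each identical pair counted once the first count was 10 of 20. Between naive and memory the highest array shared its number for 6 of 22 (24.9%), between naive and PD-1hi for 1 (25.6%), between naive and PD-1int for 5 (26.1%), between memory and PD-1int for 5 (27% of all) and between memory and PD-1hi for 5 (24.6%).

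The deviations of same-numbered PD-1int and PD-1hi arrays from their subset means correlated over the 22 probe sets with a Pearson r of 0.61, 0.49, 0.655 and 0.81 for numbers 1 to 4. Arrays of different numbers gave r from -0.78 to 0.63 with a mean of -0.22. Deviations within a subset sum to 0, which by itself pushes the mean of the others below 0. PD-1int replicate 2 correlated more with PD-1hi replicate 1 (0.63) than with its own number. Over all 41345 probe sets the same-number r lay between -0.03 and 0.06. Leaving out probe set 17299991 lowered the mean same-number r from 0.64 to 0.55, with a lowest value of 0.29. Between memory and each effector subset the mean same-number r was -0.24 and -0.33, and between naive and memory -0.01. Between naive and PD-1int it was 0.11 and between naive and PD-1hi -0.07, but single pairs reached values as high as those of same-numbered effector arrays: naive replicate 1 gave 0.77 with PD-1int replicate 4 and 0.69 with PD-1hi replicate 4, and naive replicate 2 gave 0.72 with PD-1int replicate 2 and 0.61 with PD-1hi replicate 1. Without probe set 17299991 these naive pairs gave 0.67, 0.51, 0.27 and 0.28 in that order. All r given here describe the arrays across probe sets that share sequence, and no test was made.

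**Figure D4:**
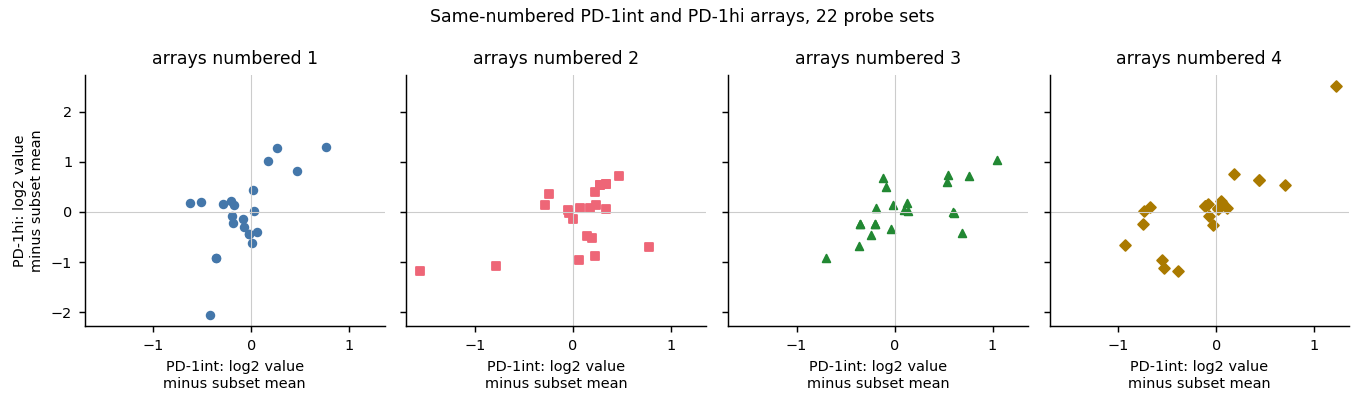
Deviation from the subset mean in PD-1int (x axis) against PD-1hi (y axis), in log2 units, for the 22 probe sets, with 1 panel for each replicate number. Points tend to run from the lower left to the upper right, with r of 0.61, 0.49, 0.655 and 0.81 for numbers 1 to 4.

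Of 16 listed genes that build the receptor or carry its signal, 12 had a probe set with that symbol alone. Against naive, 1 rose and 1 fell in memory (6.8% of all probe sets changed), and 4 rose and 2 fell in each effector subset (15.2% and 19.2% of all). Against memory, 3 rose and 1 fell in PD-1int (9.94% of all) and 4 rose and 1 fell in PD-1hi (14.6%), and 1 rose in PD-1hi against PD-1int (1.26%). Zap70, the kinase recruited to the phosphorylated receptor, rose by 0.68 ± 0.08 in PD-1int and 1.11 ± 0.08 in PD-1hi (limma adjusted p = 1.5e-05 and 6.4e-08). Cd3e rose by 0.22 ± 0.06 and 0.37 ± 0.06, and Lat, the adaptor that Zap70 phosphorylates, by 0.46 ± 0.07 and 0.41 ± 0.07. Cd8b1 fell by 0.32 and by 0.33 in PD-1int and PD-1hi. Dntt, the enzyme that adds bases at the joins of rearranging segments, had a mean of 5.83 ± 0.43 in naive and fell by 0.83 in memory, 0.87 in PD-1int and 0.76 for PD-1hi (limma adjusted p = 0.0119, 0.00383 and 0.00743). Its means lay below the median of every array, and without detection calls it is unknown whether they stand above background. Ptcra and Rag2, which act in thymocytes, did not pass against naive. Cd5, a surface inhibitor of receptor signalling, rose by 0.55 ± 0.12 in PD-1int and differed by 0.15 ± 0.12 in PD-1hi (limma adjusted p = 0.00439 and 0.491). Arrays also differed more for part of these genes in the effector subsets. The median SD of the 12 was 0.07 for naive and for memory and 0.12 for PD-1int and for PD-1hi. Over all probe sets it was 0.16, 0.14, 0.15 and 0.16 in that order. The SD was larger than in naive for 5 of 12 genes in memory (40.7% of all probe sets), 7 in PD-1int (45.5%) and 8 in PD-1hi (47.3%). Cd5 had an SD of 0.06 in naive and 0.26 in PD-1hi, Cd8a 0.07 and 0.18, and Cd3e 0.06 and 0.05. Whether the segments differ from these genes in how their spread changes was not tested.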

How the data were processed

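RNA of 16 sorted CD8 T-cell samples was hybridised to Affymetrix Mouse Gene 2.0 ST arrays, per the labels' protocols. The authors deposited 1 log2 value for each probe set and array (2.35 to 14.1). Affymetrix Power Tools was used per the submitters' processing notes; for its version and summarisation method the sources used here give nothing. The number of arrays limits the precision. The platform annotation gave 1 symbol for 23521 of 41345 probe sets, several for 1814 and none for the rest; no dim probe set was removed. Level was fitted with limma 3.58.1 in R 4.3.3 (1 mean per subset, all 16 arrays, no block, eBayes), and spread by the same fit of absolute deviations from the subset mean, both Benjamini-Hochberg adjusted over all probe sets and tested on simulated data. Gaps between arrays, SDs and correlations are descriptions. Named probe sets were those with 1 symbol that passed in level without overlap (5 in each direction), had the 6 largest gaps of the highest array in a subset or the 5 smallest spread p against naive, with the gamma segments and Trbv13-2; 17299944, 17299919 and 17300181 were added after their values were seen. The segments and gene lists were chosen with earlier results of these data known. Alternatives were other normalizations, filters, blocks, weights, a variance ratio test and omission of each array.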

Additional observations from a re-analysis of the deposited data

Results flagged for a closer look

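In 5 cases 1 array stood apart from the other 3 of its subset by Dixon's criterion, which compares the gap to the nearest array with the subset's whole range. Chance gives about 1 in 20, and among all probe sets the share was 5.44% for naive, 5.19% for memory, 6% for PD-1int and 5.64% for PD-1hi. They were Trav3-4 in naive replicate 4 (7.53, low), a Trav7-4 probe set in memory replicate 3 (9.53, low), Trgv5 in PD-1int replicate 4 (5.01, high), and Trav12-2 in PD-1hi, low in replicate 1 for 17300032 (9.99) and in replicate 2 for 17300173 (10.7).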

How the results depend on the processing

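The median SD of the segments kept its order of memory, naive, PD-1int and PD-1hi under 6 alternatives, and omission of 1 array gave 0.18 to 0.23 for naive, 0.0806 to 0.150 for memory, 0.31 to 0.46 for PD-1int and 0.41 to 0.56 for PD-1hi. Counts of level calls moved as follows, with the cause not tested: PD-1int against memory (1 of 22) gave 2 with quantile normalization, 0 with median centring and 2 with trend and robust settings, PD-1int against naive (2) gave 4 when only probe sets with a symbol were tested, and memory against naive (2) gave 4 in a fit of its 8 arrays. Omitting 1 array gave 0 to 1 in memory against naive, 2 to 3 in PD-1int against naive, 1 to 7 in PD-1hi against naive, 0 in PD-1hi against PD-1int, 0 to 1 in PD-1int against memory and 0 to 2 in PD-1hi against memory. Counts of spread calls in PD-1hi (2 against naive, 2 against memory) gave 1 and 1 with 1-symbol probe sets only, since 17299944 is then left out, and 0 and 0 by variance ratio; against memory they gave 4 with quantile normalization and 4 among probe sets with a symbol, where PD-1int against memory gave 1. Omitting 1 array gave 0 to 2 in both and 0 elsewhere. Over all probe sets same-numbered arrays did not deviate together, so the numbers were not used as pairs. Over the 22 segments same-numbered PD-1int and PD-1hi arrays did (mean r 0.64). With the replicate number as a block PD-1int against memory had 0 level calls and PD-1hi 0 and 0 spread calls, and no other count moved by over 1.5 times. Probe sets with 1 array at least 2-fold above the other 3 numbered 0 for naive and memory, 1 for PD-1int and 2 for PD-1hi (0 to 0, 0 to 0, 1 to 3 and 3 to 4 with 1 array omitted), and on the low side 1, 0, 2 and 3. The count of 12 probe sets with a shared highest number was 10 to 13 under 5 alternatives, and the mean same-number r was 0.46 without number 4. Arrays carry no detection calls, so values of dim probe sets such as Trgv5 may be background.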
